A study of Mus musculus with 2 samples.

Results

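The neural crest specifier genes were taken as 10 transcription factor genes, Sox9, Sox10, Foxd3, Tfap2a, Tfap2b, Snai1, Snai2, Twist1, Pax3 and Ets1, out of 21887 protein-coding genes on the autosomes, X and Y. They were chosen by name, and a peak was assigned to a gene when its summit lay in the gene body or within 10 kb of either gene end (the gene window). The peaks came from chromatin immunoprecipitation followed by sequencing (ChIP-seq) on frozen heads of mouse embryos at E10.5, with an antibody that recognises GFP, the green fluorescent protein used as a tag. The series is titled for the ocular roles of H3.2, a histone whose synthesis is tied to S phase. Both libraries carried the same labels, so they form 1 group of 2 samples, called library 1 and library 2 here. The protein that carried GFP, the strain, the sex, the litter and the number of embryos are not given in the sources used here, and no label names a control. No comparison of conditions was therefore possible, and no p-value is given. Peak lists hold no RNA, so they do not check which cells of the head the chromatin came from.

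The neural crest is a population of cells that forms at the border of the neural plate, leaves the neural tube by an epithelial-to-mesenchymal transition and gives rise to facial cartilage and bone, cranial ganglia, glia and pigment cells. Its formation is described as a cascade of transcription factors. Border genes such as Pax3 and the AP-2 genes act early, specifiers such as Foxd3, the Snail genes, Twist1 and Ets1 act around delamination, and the SoxE genes Sox9 and Sox10 act in migrating cells and their derivatives. In the mouse head at this stage, crest-derived mesenchyme fills the branchial arches and the frontonasal region.

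The 2 libraries differed greatly in size. Library 1 held 584724 peaks and library 2 held 348, of which 127 lay on assembled chromosomes. None of the 10 genes had a library 2 summit in its window, as against 0.192% of all protein-coding genes. The library 2 summit nearest to any of them lay 114 kb outside Twist1, and for the other members the distance ran from 5450 kb (Tfap2b) to 78900 kb (Tfap2a). All values that follow are from library 1, so each rests on 1 library without a replicate.

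Upstream sequences are shown for Foxd3 and Snai1, where a library 1 peak reached into the 250 bases before the transcription start, and for Twist1, where none did. They are RefSeq sequences of build GRCm38.p6 on the strand of the gene, which is the plus strand in each case, from chr4:99656049-99656298 for Foxd3, chr2:167537945-167538194 for Snai1 and chr12:33957421-33957670 for Twist1. Capitals mark bases inside a library 1 peak.
Foxd3: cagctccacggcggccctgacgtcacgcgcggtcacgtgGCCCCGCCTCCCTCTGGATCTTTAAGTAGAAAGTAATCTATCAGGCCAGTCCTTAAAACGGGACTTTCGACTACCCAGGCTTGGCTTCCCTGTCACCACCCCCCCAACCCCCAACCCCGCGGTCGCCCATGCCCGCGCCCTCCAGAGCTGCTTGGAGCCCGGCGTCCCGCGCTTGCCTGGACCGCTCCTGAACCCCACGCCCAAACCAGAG
Snai1: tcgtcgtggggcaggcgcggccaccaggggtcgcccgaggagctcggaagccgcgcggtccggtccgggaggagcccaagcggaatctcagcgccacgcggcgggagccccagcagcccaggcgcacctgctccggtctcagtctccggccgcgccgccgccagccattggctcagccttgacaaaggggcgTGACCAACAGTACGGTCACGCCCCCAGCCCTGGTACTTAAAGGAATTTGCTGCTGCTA
Twist1: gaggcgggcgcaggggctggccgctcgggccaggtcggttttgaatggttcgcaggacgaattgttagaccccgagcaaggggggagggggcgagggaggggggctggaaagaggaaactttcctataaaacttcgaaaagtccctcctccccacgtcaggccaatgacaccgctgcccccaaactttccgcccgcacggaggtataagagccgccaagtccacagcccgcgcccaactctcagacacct

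In Foxd3, 211 of the 250 bases lay inside a peak, in Snai1 58 bases, those next to the start, and in Twist1 0. The sequences were rich in G and C, with 65.6% in Foxd3, 70% in Snai1 and 62.4% in Twist1, against a median of 55.6% over 21263 promoters of protein-coding genes. CpG dinucleotides numbered 21, 27 and 18 in the same order, against a median of 10. In the Snai1 sequence an AP-2 motif (GCCNNNGGC, on either strand) began 87 bases before the start and an E-box of the kind bound by Snail proteins (CAGGTG, on either strand, here as CACCTG) began 126 bases before it. Both lay outside the peak. An AP-2 motif occurred in 16.3% and this E-box in 16.9% of all promoters of the same length. Foxd3 had a general E-box (CANNTG, which includes CAGGTG, on either strand), read as CACGTG and beginning 217 bases before the start, also outside its peak. This general E-box occurred in 62.8% of promoters and had no match in Twist1. The motifs ACAATG for Sox proteins and CCGGAA for Ets proteins, each searched on either strand, had no match in these 3 sequences and occurred in 9.35% and 15% of all promoters. Tfap2a and Tfap2b also have listed starts, and none of their 250-base upstream sequences overlapped a peak.

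Every one of the 10 genes had at least 1 library 1 peak, as did 94.8% of all protein-coding genes, so the presence of a peak does not set the members apart. All 10 also had a summit in the gene body itself, against 85.7% of all protein-coding genes. What varied among them was the number of peaks per length. Sox10 had 33 peaks in a window of 29.58 kb and Snai2 had 1 in a window of 23.54 kb, which is 1116 and 42.5 peaks per Mb and a ratio of 26.3. The 10 windows together held 161 peaks (95% exact Poisson interval 137 to 188, which covers counting error only) in 499.6 kb, or 322 per Mb. The median over the members was 359.5 peaks per Mb, against a median of 326 over all protein-coding genes, and this order turned with 50 kb on each side (265 against 334) and among peaks with a −log10 q of at least 5 (55.9 against 124.5). In all, 5 of the 10 members lay above the all-gene median of 326, and the autosomes as a whole held 240.0 peaks per Mb. All 10 members are autosomal, whereas the all-gene values include genes on the X chromosome, which held 30.7 peaks per Mb. The all-gene values were not computed for autosomal genes alone. Sox10 and Ets1 contributed 73 of the 161 peaks (45.3%).

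**Figure D1:**
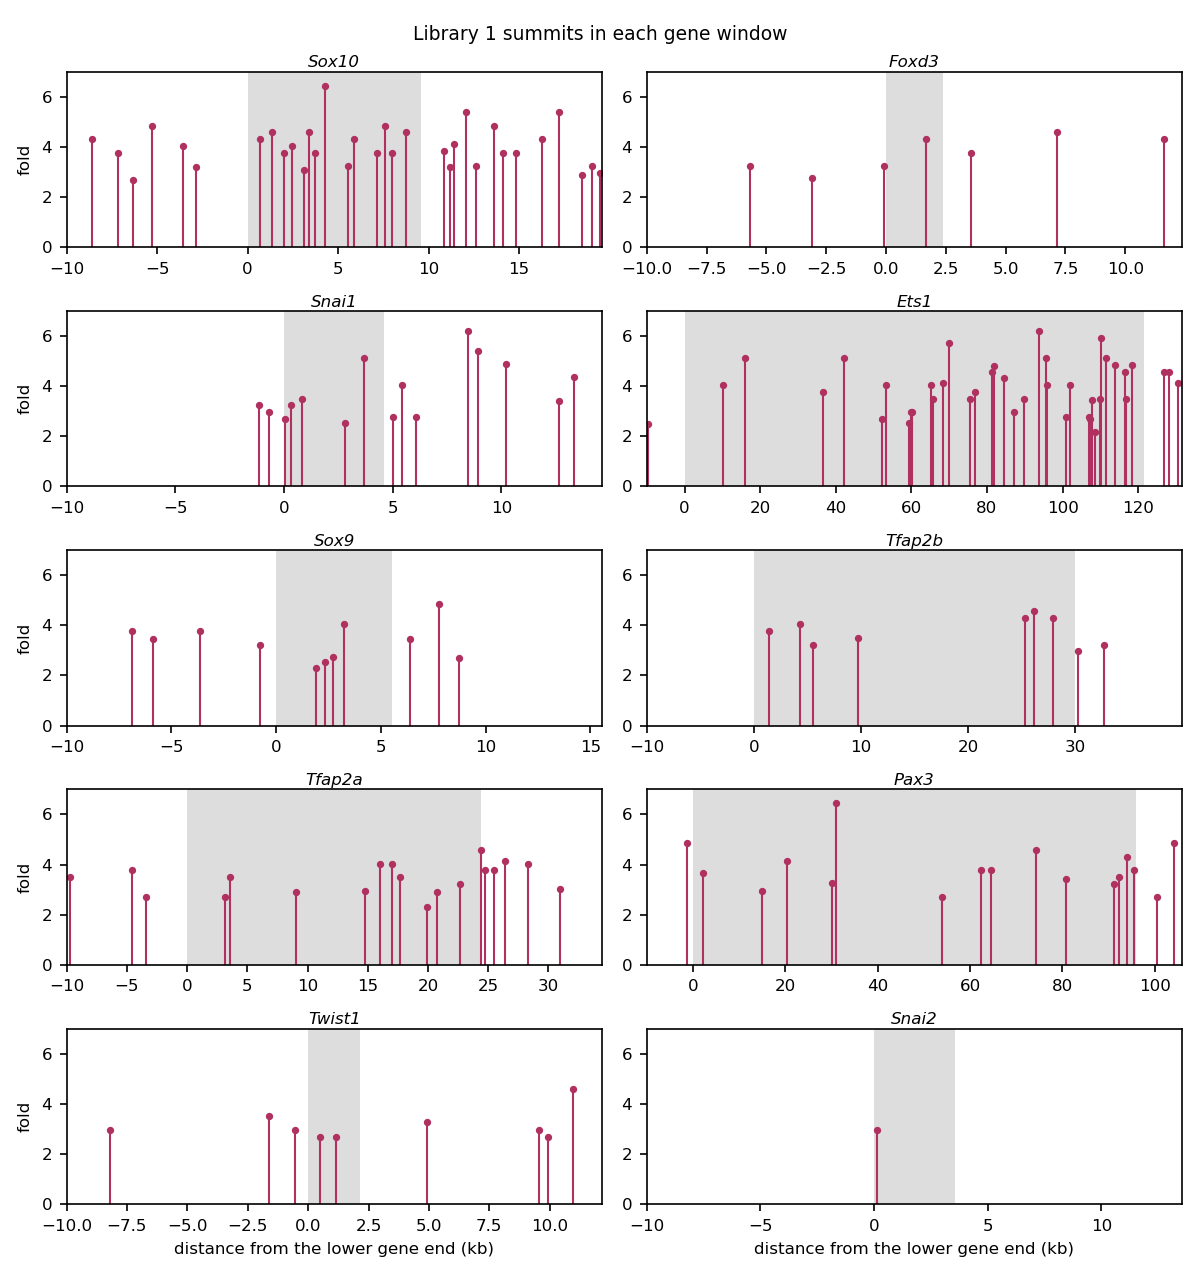
Summits of library 1 in the window of each gene, with the distance from the lower-coordinate gene end in kb on the horizontal axis, the authors' fold enrichment on the vertical axis and the gene body shaded. Panels run down each column from the densest gene to the sparsest, Sox10 with 33 summits to Snai2 with 1, and the horizontal scale differs between panels.

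Among the early regulators, Pax3, which encodes a paired-box factor of the neural plate border and of melanocyte precursors, was sparsely covered for its length. The gene spans chromosome 1, 78101267 to 78197136 (95.9 kb), and its window held 17 peaks, 14 of them in the body, or 147 per Mb (85.5 to 235). The rest of the 1 Mb centred on the gene held 182 per Mb (155 to 213), and the intervals overlapped. A stretch of 22.6 kb inside the gene, from 78132436 to 78155084, held no peak. It began directly after the peak with the highest fold enrichment among the 10 genes, at 78132123 to 78132435, with a fold of 6.46 and 23 overlapping reads at its summit (the pileup; 95% interval 14.6 to 34.5). The summit nearest to a gene end lay 365 bp inside the higher end, in a peak with a fold of 3.77.

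Tfap2a and Tfap2b encode AP-2 factors, which act in the border ectoderm and in cranial crest cells. Tfap2a (chromosome 13, 40713802 to 40738238) had 19 peaks, or 428 per Mb (257 to 668), and Tfap2b (chromosome 1, 19208908 to 19238845) had 9, or 180 per Mb (82.4 to 342). In Tfap2a, 11 peaks lay in the body and 5 in the 10 kb beyond its higher end, and its strongest peak, at 40738091 to 40738229 with a fold of 4.58, lay just inside that end. A further 2 summits lay 114 and 376 bp downstream of listed starts, with folds of 2.29 and 2.89. The first of these, with a pileup of 9 reads, was the weakest of the gene. Of the 19 summits, 6 also lay inside the long non-coding RNA gene Gm26688. In Tfap2b the peaks formed separate clusters towards the ends of the gene. Its body had no peak over 15.4 kb, from 19218708 to 19234066, and the nearest summit to the listed start was 1114 bp downstream of it, with a fold of 4.04. The highest fold, again 4.58, belonged to a peak at 19234952 to 19235126, in the other cluster.

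Of the specifiers that act around delamination, Foxd3, a forkhead factor that keeps crest cells multipotent, had 7 peaks in a window of 22.37 kb (313 per Mb, 126 to 645). The gene spans chromosome 4, 99656299 to 99658671, and only 1 summit lay in its body. The peak over the upstream sequence shown above, at 99656088 to 99656338, had its summit 97 bp before the start, a fold of 3.23 and a pileup of 11 reads (5.49 to 19.7). The strongest peak lay beyond the higher gene end at 99662874 to 99663652, with a width of 779 bp, a fold of 4.58 and a pileup of 16 reads.

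Snai1 and Snai2 encode zinc-finger repressors of E-cadherin that drive the epithelial-to-mesenchymal transition, and they stood far apart in peak number. Snai1 (chromosome 2, 167538195 to 167542814) had 15 peaks, or 609 per Mb (341 to 1005). Its 4 summits within 1 kb of the start lay 692 bp upstream and 57, 301 and 808 bp downstream, with folds of 2.69 to 3.50. Its strongest peak lay downstream of the gene at 167546420 to 167546776, where the fold was 6.19 and the pileup 22 reads, while 8.78 kb of the window on the upstream side held no peak. Snai2 (chromosome 16, 14705852 to 14709395) had its only peak at 14705858 to 14706022, with the summit 142 bp inside the lower gene end, a fold of 2.96 and a pileup of 10 reads (4.80 to 18.4). Its density of 42.5 per Mb had an interval of 1.07 to 237, which does not overlap that of Snai1 for the peaks as listed. Joining peaks less than 500 bp apart left Snai1 with 9 (366 per Mb) and Snai2 with 1, and intervals were not computed for these. With 50 kb on each side in place of 10 kb, Snai2 had 10 peaks (96.6 per Mb) and Snai1 had 79 (755 per Mb).

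Twist1, which encodes a basic helix-loop-helix factor of cranial mesenchyme, had 9 peaks in a window of 22.16 kb (406 per Mb, 186 to 771). The gene spans chromosome 12, 33957671 to 33959831. Summits lay 563 bp upstream and 498 bp downstream of the start, with folds of 2.96 and 2.69, on either side of the peak-free sequence shown above. The median fold of the Twist1 peaks was 2.96, and the strongest, 4.58, lay near the far edge of the window at 33968415 to 33968805. Ets1 encodes an ETS-domain factor of cranial crest and endothelium and is the longest of the genes, at chromosome 9, 32636241 to 32757820. It had 40 peaks (282.5 per Mb, 202 to 385), 36 of them in the body. No summit lay within 1 kb of either end, and a stretch of 20.3 kb in the lower part of the gene, from 32652339 to 32672640, held no peak. Ets1 had the highest median fold of the members, 4.04, and its strongest peak was at 32729884 to 32730158 with a fold of 6.19. Of its peaks, 18 had a −log10 q of at least 5, the most of any member, and Sox10 followed with 13.

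The SoxE genes encode high-mobility-group factors, with Sox9 needed for crest-derived cartilage and Sox10 for glia and pigment cells. Sox9 (chromosome 11, 112782210 to 112787757) had 11 peaks, or 431 per Mb (215 to 770), spread over the body and both flanks. Its strongest peak, at 112789908 to 112790056, had a fold of 4.85, and the summits nearest to its ends lay 759 bp outside the lower and 831 bp outside the higher end. Sox10 (chromosome 15, 79154913 to 79164490) had 33 peaks, or 1116 per Mb (768 to 1567). Its peaks covered 39.6% of the window, against 0.701% to 18% in the other members. A peak of 1350 bp, the widest of the set, lay across its higher end at 79163319 to 79164668, with a fold of 4.58. The peak with the highest −log10 q of the set, 10.98, lay in the gene body at 79159093 to 79159421. There, 24 reads overlapped (15.4 to 35.7) and the fold was 6.42. A pileup of 24 reads, the most of the set, was also reached by a peak at Pax3 and a peak at Ets1. Of the 33 summits, 5 lay inside Polr2f, which encodes a subunit shared by the nuclear RNA polymerases, and 12 inside the long non-coding RNA gene Gm10863. Without these, Sox10 had 16 peaks, or 541 per Mb of the whole window. The length inside the other genes was not taken out, so this value understates the density in the rest of the window. With peaks less than 500 bp apart joined, Sox10 had 13 (439.5 per Mb). The joined value placed Sox10 at percentile 85.8 of all protein-coding genes, as against 99.6 for the peaks as listed.

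In order of density the genes ran Sox10, Snai1, Sox9, Tfap2a, Twist1, Foxd3, Ets1, Tfap2b, Pax3 and Snai2, and the intervals of all neighbours in that order overlapped. The interval of Sox10 lay above those of Tfap2a, Foxd3, Ets1, Tfap2b, Pax3 and Snai2. These intervals, like the other density intervals given here, count each listed peak as separate. With peaks less than 500 bp apart joined, Sox10 had 439.5 per Mb. The joined values were 360 at Tfap2a, 313 at Foxd3, 219 at Ets1, 180 at Tfap2b, 147 at Pax3 and 42.5 at Snai2. Intervals were not computed for joined peaks, so whether this separation holds for them was not tested. Among all protein-coding genes, the members lay from percentile 8.59 (Snai2) to 99.6 (Sox10), with a median of 53.4.

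**Figure D2:**
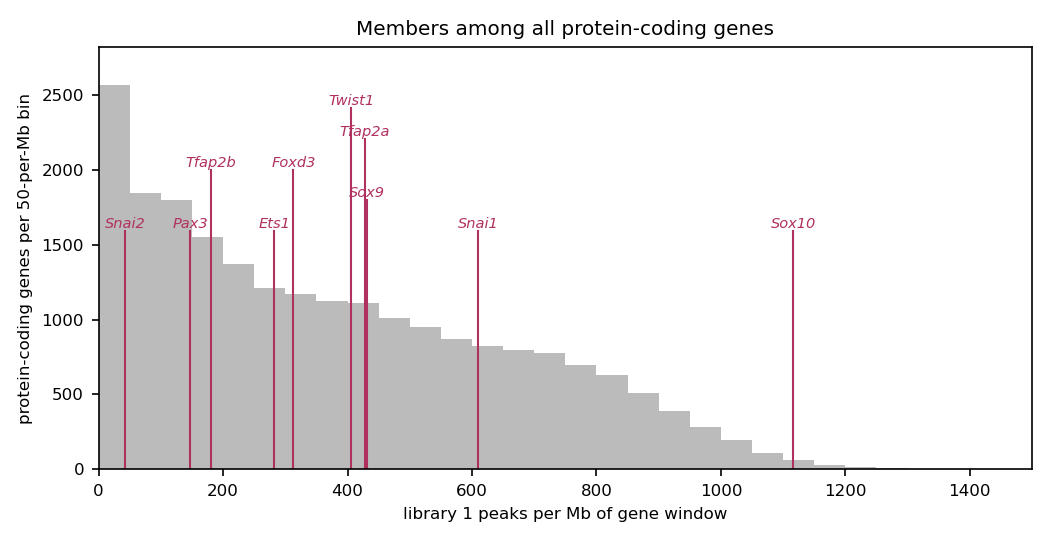
Number of protein-coding genes (vertical axis) by library 1 peaks per Mb of gene window (horizontal axis, bins of 50 per Mb), with a line at each member. The members are spread from 42.5 per Mb for Snai2 to 1116 for Sox10, where few other genes lie.

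The density in a window was also set beside that of the surrounding region, taken as the rest of the 1 Mb centred on the gene. Sox10 lay in a peak-rich region, with 1116 peaks per Mb in its window and 821 (765 to 880) around it. At Snai1 the order was the other way, with 609 per Mb in the window and 903 (845 to 965) around it. Twist1 had 406 per Mb in its window and 96.1 (77.7 to 118) around it, a ratio of 4.22, and it was the only member whose interval did not overlap that of its surroundings. Of the 9 Twist1 peaks, 1 had a −log10 q of at least 5. With 50 kb on each side, Twist1 had 20 peaks (196 per Mb). Snai2 had the lowest ratio, 0.23, with 184 per Mb (158 to 213) around it. The ratio was above 1 for 7 of the 10 genes, with a median of 1.20. A high count at a gene thus did not always go with a high count relative to its region. The ratio was not computed for all protein-coding genes, so whether 7 of 10 is unusual was not tested. The median window of all protein-coding genes held 326 peaks per Mb, against 240.0 over the autosomes as a whole.

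**Figure D3:**
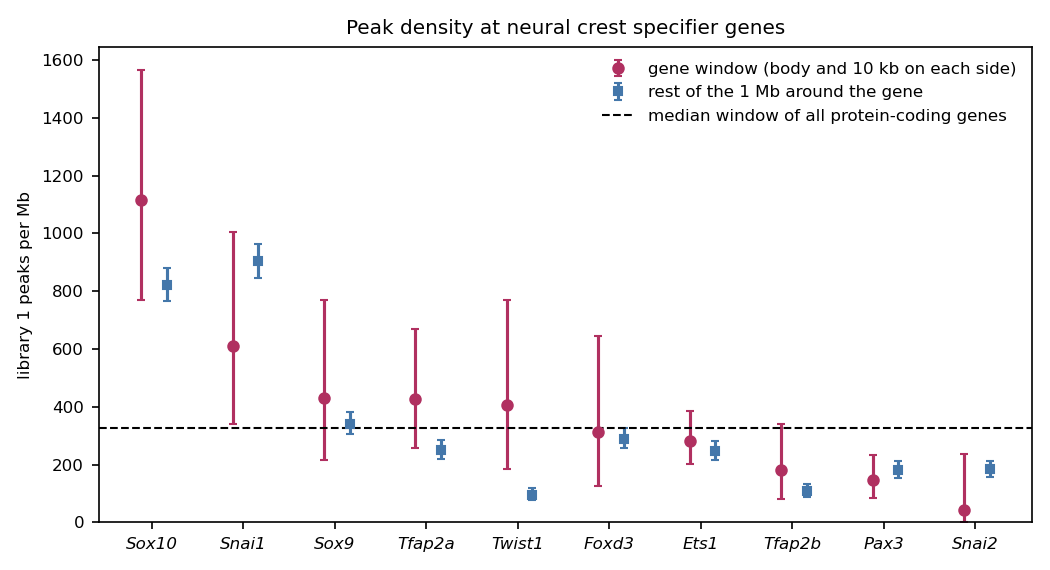
Library 1 peaks per Mb in each gene window (circles) and in the rest of the 1 Mb around the gene (squares), with 95% exact Poisson intervals, and the median window of all protein-coding genes as a dashed line. Twist1 stands clear of its surroundings (406 against 96.1), while Sox10 and Snai1 lie in peak-rich regions.

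Fold enrichment of the peaks at these genes ranged from 2.15 to 6.46, with a median of 3.77 for the members' 161 peaks and 3.90 for all peaks of library 1. Pileups ranged from 9 to 24 reads, with a median of 13. The genome-wide background was taken as 2.71 reads, the most frequent local background solved in a random sample of library 1 peaks. On it stood 111 of the members' peaks (68.9%), against 66.0% of that sample. Many peaks on this background share the same fold because pileups are whole numbers. A −log10 q of at least 5 was reached by 52 of the 161 peaks (32.3%), against 40.9% of all library 1 peaks. At that threshold 9 of the 10 genes had a peak (88.2% of all protein-coding genes), Snai2 being the exception. Among the 10% of library 1 peaks with the highest fold, 9 belonged to the members, at Sox10, Snai1, Pax3 and Ets1. These 4 genes compare with 67.2% of all protein-coding genes that had such a peak.

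Width followed the same order as density only in part. The median width was 197 bp for the members' peaks and 201 bp for all library 1 peaks. The median was highest at Sox10 (293 bp) and Snai1 (289 bp) and lowest at Tfap2b (161 bp). Of the 11 peaks over 500 bp, 7 lay at Sox10, and such peaks made up 6.83% of the members' peaks and 7.76% of library 1.

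**Figure D4:**
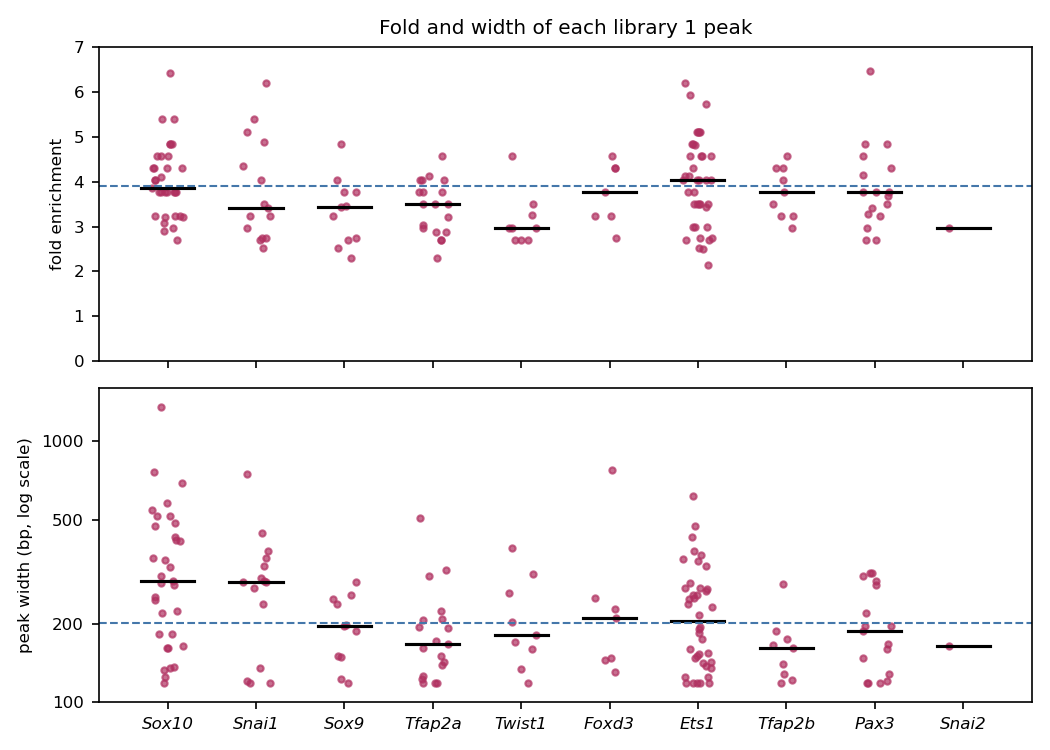
Fold enrichment (upper panel) and width in bp on a log scale (lower panel) of each library 1 peak, by gene from the densest to the sparsest. Black bars are the medians of each gene, and dashed lines the medians of all library 1 peaks, 3.90 and 201 bp. Median folds lie between 2.96 and 4.04, and Sox10 (293 bp) and Snai1 (289 bp) have the highest median widths.

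A start is listed for Foxd3, Snai1, Twist1, Tfap2a and Tfap2b, and for the other members either gene end was used, since the gene table gives no strand. By that rule 8 of the 10 genes had a summit within 1 kb, against 69.6% of all protein-coding genes, and the exceptions were Tfap2b and Ets1. Of the 5 genes with a listed start, 4 had such a summit (67.6% of all genes with a listed start), and of the 5 others, 4 had one at either end (77.5% of all genes without a listed start). The 15 peaks concerned had a median fold of 3.23 and a median pileup of 11 reads, against 3.77 and 13 reads for the members' other 146 peaks. Over library 1 as a whole, peaks near a start or such an end had a median fold of 3.67, against 3.90 for the rest. With a −log10 q of at least 5, Sox10 alone kept a summit within 1 kb. The share of all protein-coding genes at that threshold was not computed. Of the 15 peaks, 2 reached it, against 29.8% of all library 1 peaks near a start or such an end. Peak density was higher in the gene body than in the flanks for 9 of the 10 genes. Examples are Sox10 (1462 per Mb in the body and 950 in the flanks), Snai1 (1082 and 500) and Sox9 (721 and 350). Pax3 was about level (146 and 150). The body held only 1 peak at Foxd3 and at Snai2, and 2 at Twist1. The share of all protein-coding genes that were denser in the body was not computed. The median over all protein-coding genes was 371 per Mb in bodies alone and 326 in the windows. The medians over the 10 members were 435.8 and 359.5. Pooled over the 10 genes, the values were 317 per Mb in the bodies and 330 per Mb in the flanks, since the long bodies of Pax3 and Ets1, with 146 and 296 per Mb, make up most of the body length.

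Set beside their paralogs, the members had a median of 359.5 peaks per Mb and the 11 paralogs, all with at least 1 peak, a median of 728.5. Above the median of all protein-coding genes lay 5 of the 10 members and 9 of the 11 paralogs, and the difference between these counts was not tested. Snai1 had 609 and Snai2 42.5 peaks per Mb, against 1203 (823 to 1698) at Snai3, which had 32 peaks. Sox10 had 1116 and Sox9 431 per Mb, against 1089 (718 to 1584) at Sox8, the third SoxE gene. Pax3 had 17 peaks (147 per Mb), against 88 (755.5 per Mb, 606 to 931) in a window about as long at Pax7, and these intervals did not overlap. Among the AP-2 genes, Tfap2a had 428 and Tfap2b 180 per Mb, against 728.5 (467 to 1084) at Tfap2c, 154 (84.2 to 258) at Tfap2d and 770 (523 to 1093) at Tfap2e. The interval of Tfap2b (82.4 to 342) lay below those of Tfap2c and Tfap2e. The 4 Foxd genes lay between 313 (Foxd3) and 442 per Mb (Foxd2), within each other's intervals.

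**Figure D5:**
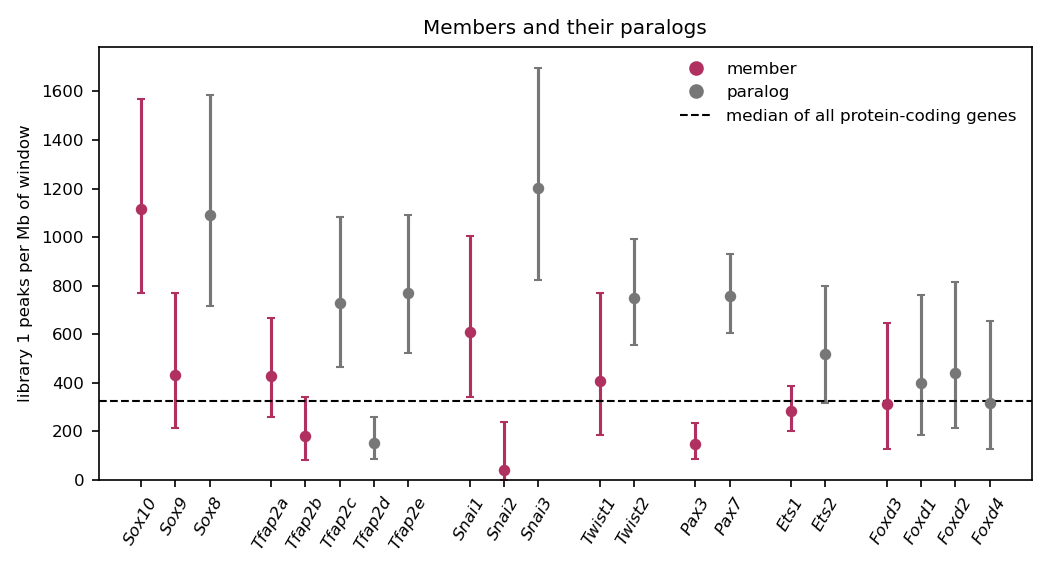
Library 1 peaks per Mb of gene window with 95% exact Poisson intervals for members and their paralogs, grouped by family. Pax3 (147) lies below Pax7 (755.5), Snai1 (609) and Snai2 (42.5) lie below Snai3 (1203), and the Foxd genes lie close together.

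Other genes of the neural crest programme also covered a wide range. The 9 neural plate border regulators analysed here each had a peak, with a median of 453 per Mb, from 144 at the zinc-finger gene Zic1 to 913 at the homeobox gene Dlx3. All 12 other crest regulators had peaks, with a median of 249 per Mb, from 120 at the proto-oncogene Myc to 1089 at Sox8. All 10 receptor and adhesion genes had peaks as well (median 343 per Mb), from 63.4 at the cadherin gene Cdh11 to 849 at Ngfr, which encodes the p75 neurotrophin receptor. Among 13 genes of crest derivatives analysed here, all with a peak and with a median of 296 per Mb, Tyr, which encodes the pigment enzyme tyrosinase, had 56.3 and Dbh, which encodes the enzyme that makes noradrenaline, had 928. None of these genes had a library 2 peak. Pax7 and Sox8 each belong to 2 of these lists.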

How the data were processed

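ChIP-seq peak lists of 2 libraries were analysed. Per the submitters' processing notes, bcl2fastq 2.17, Trimmomatic 0.33, Bowtie 1.1.2 and MACS2 2.1.0 were used, with builds hg38 and mm10, roles and settings not given in the sources used here. The chromosome names and positions match mouse build mm10. The authors' deposited lists give, per peak and library, a score (the whole part of 10 times the −log10 q), a fold enrichment (ratio), a −log10 p-value, a −log10 q-value and a summit offset. These are the authors' values. Gene positions came from RefSeq GRCm38.p6 and all 10 members matched by symbol. Coordinates count from 1.

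Summits were counted per gene window (Python 3.11.15, pandas 2.3.3, scipy 1.17.1). Pileup and local background were solved from fold and −log10 p, with a tolerance of 0.002. Counting and solving were tested on simulated data. Percentiles are mid-ranks over 21887 genes. All 10 members are named, each with its strongest peak by fold and the one nearest a start or end. Of the other lists, the densest and the sparsest gene are named, and the members of the paralog list beyond these were named after their values were seen. Some listed genes are not reported here. Members and lists were chosen with earlier results of these data known. Read totals are not in the lists, so pileups set the precision. Alternatives covered windows, thresholds, joining of peaks and each library left out.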

Additional observations from a re-analysis of the deposited data

How the results depend on the processing

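Of 32 alternatives, 22 left the value within its interval, or the count within 1.5 times. Some of the 22 could not move, such as the 10 genes with a peak when the window was widened or library 2 was left out. The same holds for the 0 genes with a library 2 peak in narrower windows. The interval for the median density was wide, at 147 to 609 per Mb, so 265 counted as unchanged although the order against all genes turned. The stricter thresholds keep fewer peaks by construction. With −log10 q of at least 5, the members had 52 peaks in place of 161 and a median of 55.9 per Mb in place of 359.5. Within 1 kb of a listed start, or of either gene end where none is listed, 1 gene had a summit in place of 8. That gene, Sox10, has no listed start. The median fold was 4.58 and the median width 275 bp. In the top 10% by fold, 4 genes had a peak and 0 had a summit within 1 kb of a listed start or such an end. The shares of all protein-coding genes with a summit within 1 kb were not computed at these stricter thresholds. Gene bodies alone, a smaller area, held 95 peaks. Peaks within 1 kb of a start or end, a group chosen after seeing the data, had a median fold of 3.23, and the cause was not tested. With each library left out in turn, the number of genes with a peak in either library ranged from 0 to 10, being 0 with library 2 alone. The median density was 265 per Mb with 50 kb flanks and 313 with peaks joined. Without summits in other genes, but with whole window lengths kept, it was 303, a setting added after seeing the data. For all protein-coding genes the median density was 334 with 50 kb flanks, 262 with peaks joined and 124.5 with the stricter q. The members' median thus lay below that of all genes in the wider window and at the stricter q, and above it with joined peaks. It also lay above it in gene bodies alone (435.8 against 371) and with 1 kb flanks (455.6 against 345). No paired analysis was possible because there is only 1 group. Summits rest on 9 to 24 reads in 1 library, which limits how far neighbouring densities can be told apart.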
